A study of Mus musculus with 10 samples.

Results

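The 10 genes described here are the ones by which neurons that make dopamine, noradrenaline, serotonin or acetylcholine are usually recognised in brain RNA: Th, Ddc, Slc6a3, Slc18a2, Dbh, Slc6a2, Tph2, Slc6a4, Chat and Slc5a7. They were taken from the table by gene name, and all 10 were found among its 54532 genes. Their spans there, on GRCm38 and with their strands, were Th (chr7:142892752-142931128, -), Ddc (chr11:11814101-11898144, -), Slc6a3 (chr13:73536747-73578672, +), Slc18a2 (chr19:59260878-59296012, +), Dbh (chr2:27165233-27183200, +). The others were Slc6a2 (chr8:92960079-93001667, +), Tph2 (chr10:115078641-115185022, -), Slc6a4 (chr11:76998603-77032340, +), Chat (chr14:32408203-32465989, -) and Slc5a7 (chr17:54273590-54299034, -). The 10 libraries were made by RNA sequencing of part of the brain of Slc20a2-HO mice, homozygous knockouts of Slc20a2, which encodes a sodium-dependent phosphate transporter. All mice were of this genotype and no wild-type library was used here. From 1.5 months of age and for 12 weeks, 6 mice had received intraperitoneal FTY720 (fingolimod, a modulator of sphingosine-1-phosphate receptors) at 0.5 mg/kg in DMSO, and 4 mice had received DMSO alone as placebo. Each mouse name begins with F (FTY720) or P (placebo) and a digit, 1 or 3, whose meaning the labels do not give. Digit 1 was carried by 3 FTY720 mice and 1 placebo mouse, and digit 3 by 3 FTY720 mice and 3 placebo mice. Which genes of these neurons differed between the digits, and whether FTY720 and placebo differed among the digit 3 libraries, were the questions addressed.

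These neurons are few and lie in small, deep nuclei whose fibres reach much of the brain. Dopamine neurons sit mainly in the substantia nigra and ventral tegmental area of the midbrain, with further groups in the hypothalamus and olfactory bulb. Noradrenaline neurons lie in the locus coeruleus of the pons and in the medulla, and serotonin neurons in the raphe of the midbrain, pons and medulla. Acetylcholine neurons are spread over the striatum, the basal forebrain, the pons and the motor nuclei of the brainstem. Most of the transcript of each synthetic enzyme and uptake transporter is found in the cell bodies, so its amount in a piece of brain depends on which nuclei the piece holds.

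Total counts ran from 14772745 to 18303981 per library, and 1 count was worth 0.0542 to 0.0709 CPM (counts scaled by TMM library size). The libraries of the 2 digits stood apart in markers of whole brain regions. The summed CPM of 8 cerebellar markers was 122 to 140 with digit 1 and 1358 to 1480 with digit 3, and all 8 were higher with digit 3. Most of the digit 1 sum came from Zic1 and Cbln1, with means of 70.4 and 33.3 CPM. Gabra6, Pcp2, Fat2 and Cbln3 averaged 0.11, 0.11, 0.35 and 0.69 CPM with digit 1. With digit 3 these averaged 148, 25.7, 130 and 290 CPM. The 8 hindbrain markers summed to between 0 and 0.284 CPM with digit 1, where 7 of them (Hoxa2, Hoxa3, Hoxb3, Hoxb5, Hoxa5, Hoxc4 and Hoxd3) had no count, and to between 8.78 and 13.7 CPM with digit 3. The 8 hypothalamic markers went the other way, with 85.1 to 145 CPM against 16.3 to 70.9 CPM, while 7 markers shared by all neurons covered 5148 to 5695 CPM and 5216 to 5526 CPM. Slc20a2 itself read 6.31 to 9.43 CPM with digit 1 and 11.5 to 16.97 CPM with digit 3, and without a wild-type library this level does not check the genotype. The digit and the regional markers cannot be told apart in this design, and fewer cells of a type cannot be told apart from less RNA per cell in any value given here.

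With digit 3, 6 of the 10 genes were higher, none was lower and 4 did not pass the test. This was read against 28.4% of all 17665 genes tested that passed in that comparison, 13.9% higher and 14.4% lower. The 6 were Slc18a2, Dbh, Slc6a2, Tph2, Slc6a4 and Slc5a7 (edgeR quasi-likelihood test with Benjamini-Hochberg adjustment over all genes tested, treatment as a covariate, adjusted p = 7.80e-05 to 0.0268). For 5 of them, Slc18a2 being the exception, the values of the 2 digits did not overlap, against 14.2% of all genes tested. Dbh, Slc6a2, Tph2 and Slc6a4 met the filter on low counts, at least 0.60 CPM in 4 libraries, only with the help of the digit 3 libraries, since 1, 0, 3 and 0 of the 4 digit 1 libraries reached that level. The filter thus favoured a difference, least for Tph2, and both counts, of calls and of genes without overlap, include these 4 genes. Of the other 6 genes, 2 were called and 1 did not overlap, which is near the shares over all genes.

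**Figure D1:**
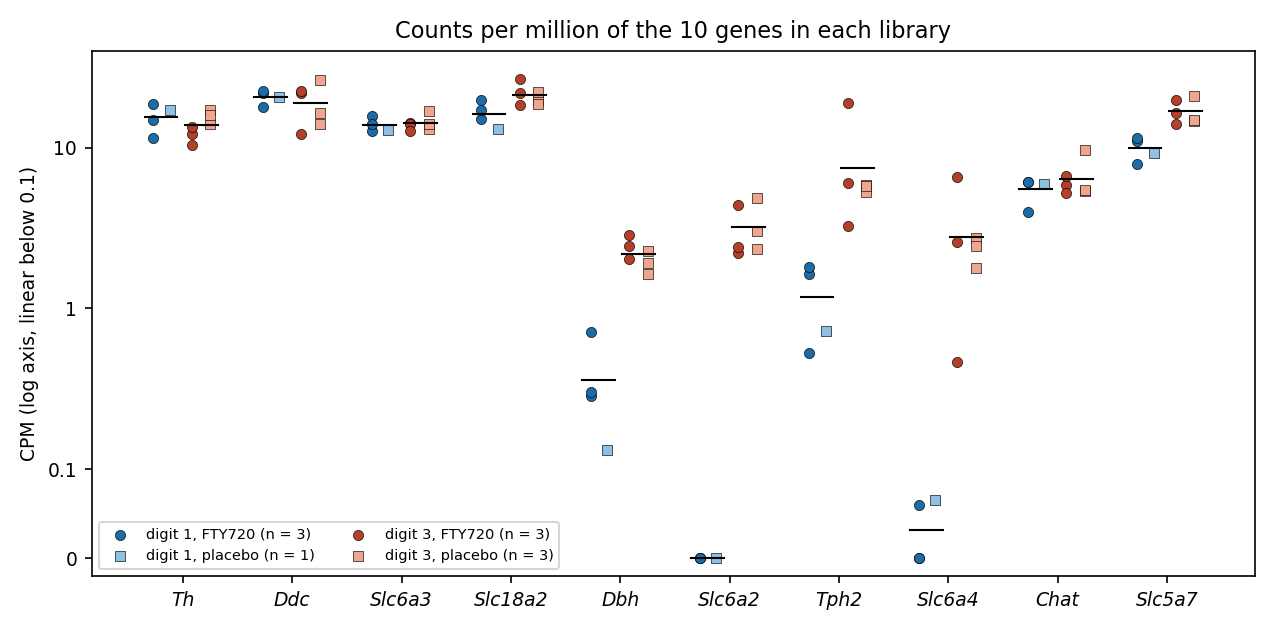
CPM of the 10 genes in every library, on a log axis that is linear below 0.1, with circles for FTY720, squares for placebo and a black bar for the mean of each digit. The points of Th, Ddc and Slc6a3 overlap between the digits, whereas Slc6a2 sits at 0 in all 4 digit 1 libraries and at 2.21 to 4.85 CPM in the 6 digit 3 libraries.

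Dopamine neurons are marked by tyrosine hydroxylase (Th), which makes L-DOPA, by aromatic amino acid decarboxylase (Ddc), which turns L-DOPA into dopamine, and by the dopamine transporter Slc6a3. Slc6a3, the narrowest dopamine neuron gene of the set, read 12.7, 15.7 and 14.1 CPM in the digit 1 mice F1-622, F1-624 and F1-918 and 12.9 CPM in P1-623. In the digit 3 mice it read 14.3, 14.0 and 12.6 CPM (F3-609, F3-612, F3-908) and 13.1, 16.9 and 13.9 CPM (P3-612, P3-904, P3-907). The 2 sets interleaved, with means of 13.9 ± 1.40 CPM (SD, n = 4) and 14.1 ± 1.47 CPM (SD, n = 6). The log2 fold change was 0.02 with a 95% interval of -0.24 to 0.28 (edgeR, adjusted p = 0.917), so a difference as large as that of Slc5a7 lay outside the interval.

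Th read 18.8, 11.5, 14.9 and 17.1 CPM in the digit 1 libraries and 12.2, 10.4, 13.5, 17.2, 14.0 and 16.0 CPM in the digit 3 libraries, in the same order of mice. Its values overlapped and its log2 fold change was -0.26 (SE 0.15, edgeR, adjusted p = 0.212). Th also serves the noradrenaline neurons, in which Dbh and Slc6a2 were higher with digit 3. Ddc, used by dopamine, noradrenaline and serotonin neurons alike, averaged 20.8 ± 2.13 CPM (SD, n = 4) with digit 1 and 18.8 ± 5.49 CPM (SD, n = 6) with digit 3 (log2 fold change -0.14, SE 0.20, edgeR, adjusted p = 0.631). Its digit 3 values spread from 12.1 CPM in F3-612 to 26.3 CPM in P3-612.

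Slc18a2, the vesicular transporter that loads every monoamine into synaptic vesicles, had 19.6, 15.2, 17.2 and 13.0 CPM with digit 1. With digit 3 it had 26.6, 18.3, 21.8, 19.7, 22.1 and 18.7 CPM. The digit 3 values were mostly the higher ones, with F1-622 inside their range. The increase was 1.36-fold (log2 0.45, SE 0.13, edgeR, adjusted p = 0.0268). This was the weakest of the 6 calls and was lost when any of F1-624, F1-918, P1-623 or F3-609 was left out (adjusted p = 0.0631, 0.0522, 0.149 and 0.0936). It was lost too without the treatment covariate (edgeR, adjusted p = 0.0654) and in the FTY720 libraries alone (edgeR, adjusted p = 0.159). Slc18a2 shares 111 exon bases with the antisense gene Gm29261, which had 1 count over all 10 libraries.

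Promoter sequences of Th and Slc18a2 are shown because these 2 genes of the same neurons were the only members to share a complete cyclic AMP response element (CRE), TGACGTCA, yet only Slc18a2 passed the test between digits. Those of Tph2 and Slc6a4 are shown as the 2 serotonin neuron genes, both higher with digit 3. The sequences are RefSeq windows of GRCm38.p6, written 5′ to 3′ on the strand of the gene, from 250 bases before the RefSeq start to 8 bases after it, with the CRE or its core TGACG in capitals.
Th, chr7:142899988-142900245, minus strand: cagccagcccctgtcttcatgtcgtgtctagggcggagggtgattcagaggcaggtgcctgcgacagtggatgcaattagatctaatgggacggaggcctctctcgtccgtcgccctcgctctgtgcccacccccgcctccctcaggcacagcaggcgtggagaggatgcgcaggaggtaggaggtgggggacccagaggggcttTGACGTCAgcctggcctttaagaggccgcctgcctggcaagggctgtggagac
Slc18a2, chr19:59260628-59260885, plus strand: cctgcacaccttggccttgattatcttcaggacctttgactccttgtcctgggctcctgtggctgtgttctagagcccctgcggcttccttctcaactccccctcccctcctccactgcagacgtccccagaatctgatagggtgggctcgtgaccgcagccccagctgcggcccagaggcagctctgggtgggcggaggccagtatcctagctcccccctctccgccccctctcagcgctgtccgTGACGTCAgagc
Tph2, chr10:115185015-115185272, minus strand: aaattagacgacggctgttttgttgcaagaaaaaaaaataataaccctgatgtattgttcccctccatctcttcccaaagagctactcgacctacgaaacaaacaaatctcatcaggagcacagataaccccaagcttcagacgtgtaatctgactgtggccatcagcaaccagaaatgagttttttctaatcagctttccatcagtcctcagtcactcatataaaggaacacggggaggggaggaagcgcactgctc
Slc6a4, chr11:76998347-76998604, plus strand: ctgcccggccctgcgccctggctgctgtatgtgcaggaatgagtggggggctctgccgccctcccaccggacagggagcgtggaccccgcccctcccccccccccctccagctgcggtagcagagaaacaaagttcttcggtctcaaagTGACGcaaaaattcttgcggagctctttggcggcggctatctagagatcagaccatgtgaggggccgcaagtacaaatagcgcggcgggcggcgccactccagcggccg
RefSeq windows were matched for 9 of the 10 genes, not for Slc6a2. The full CRE stood at position -45 of Th and -4 of Slc18a2, counted from the start, and in 1.79% of all 32851 windows searched on both strands. Its core TGACG, which every CRE contains, was also found in the windows of Dbh, Slc6a4 and Chat, and in 20.8% of all windows. TTCAGCACC, part of the element bound by the neuronal repressor REST, began at position 9 of Tph2, after the start, and was held by 0.371% of windows. AAAGGTCA, the letters bound by Nr4a2 monomers, was found in the window of Ddc and in 1.51% of all windows, and CGGAAG, an ETS factor core, in that of Chat and in 16.9%. These are matches of letters and not measured binding sites. The printed window of Th lies within the gene span of the table, with 27 of its 258 bases in annotated exons. Those of Slc18a2 and Tph2 lie before their genes except for the last 8 bases, and that of Slc6a4 except for the last 2.

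Noradrenaline is made from dopamine by dopamine beta-hydroxylase (Dbh) and taken back up by Slc6a2. Dbh read 0.284, 0.707 and 0.300 CPM in F1-622, F1-624 and F1-918 and 0.131 CPM in P1-623, from 2 to 12 counts each. In the digit 3 mice it read 2.86, 2.04 and 2.45 CPM with FTY720 and 2.26, 1.91 and 1.63 CPM with placebo, from 30 to 48 counts each. Every digit 3 library was above every digit 1 library, by a fitted 6.59-fold (log2 2.72, SE 0.36, edgeR, adjusted p = 0.000273). Slc6a2 had no count in any of the 4 digit 1 libraries. The digit 3 libraries read 2.21, 4.36, 2.39, 3.03, 4.85 and 2.33 CPM, from 37 to 84 counts each. Set against the 3 counts that a total of 0 allows over the digit 1 group, Slc6a2 was at least 67.1-fold higher with digit 3 (edgeR, adjusted p = 7.80e-05). The bound covers counting error only.

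Serotonin synthesis begins with tryptophan hydroxylase 2 (Tph2), and Slc6a4 is the serotonin transporter. Tph2 read 1.63, 0.531 and 1.799 CPM in the digit 1 FTY720 mice and 0.721 CPM in P1-623. With digit 3 it read 18.8, 3.26 and 5.98 CPM in F3-609, F3-612 and F3-908 and 5.82, 5.25 and 5.80 CPM in the placebo mice. All digit 3 values exceeded all digit 1 values, and F3-609 stood well above the other five. The fitted increase was 7.26-fold (log2 2.86, SE 0.49, edgeR, adjusted p = 0.00165), and 4.46-fold without F3-609 (edgeR, adjusted p = 0.00385). Slc6a4 had 2 counts in all over the 4 digit 1 libraries. In the digit 3 libraries it read 6.56, 0.465, 2.57, 2.73, 1.79 and 2.44 CPM, a 14.1-fold span from F3-612 to F3-609. The ratio of the pooled CPM was 86.3, with an exact counting interval of 23.7 to 716 (Clopper-Pearson, 95%, counting error only), and the call was kept in the edgeR test (adjusted p = 0.000710, and 0.00135 without F3-609).

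Acetylcholine is made by choline acetyltransferase (Chat), for which Slc5a7, the high-affinity transporter, supplies choline. Chat read 3.97, 6.07, 6.12 and 5.90 CPM with digit 1 and 5.84, 6.69, 5.20, 5.35, 9.58 and 5.42 CPM with digit 3. The values overlapped, with F1-622 lowest and P3-904 highest (log2 fold change 0.15, 95% interval -0.29 to 0.60, edgeR, adjusted p = 0.606). Slc5a7 had 7.94, 11.02, 11.4 and 9.30 CPM with digit 1 and 19.8, 16.5, 14.1, 14.6, 20.9 and 14.8 CPM with digit 3, so that the 2 sets were separate. It was 1.70-fold higher with digit 3 (log2 0.77, SE 0.16, edgeR, adjusted p = 0.00519). Slc18a3, the vesicular acetylcholine transporter, whose gene lies within that of Chat on chromosome 14 (32462438-32464850, GRCm38) without sharing exon bases with it, averaged 4.27 ± 0.72 CPM (SD, n = 4) and 4.78 ± 0.83 CPM (SD, n = 6).

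**Figure D2:**
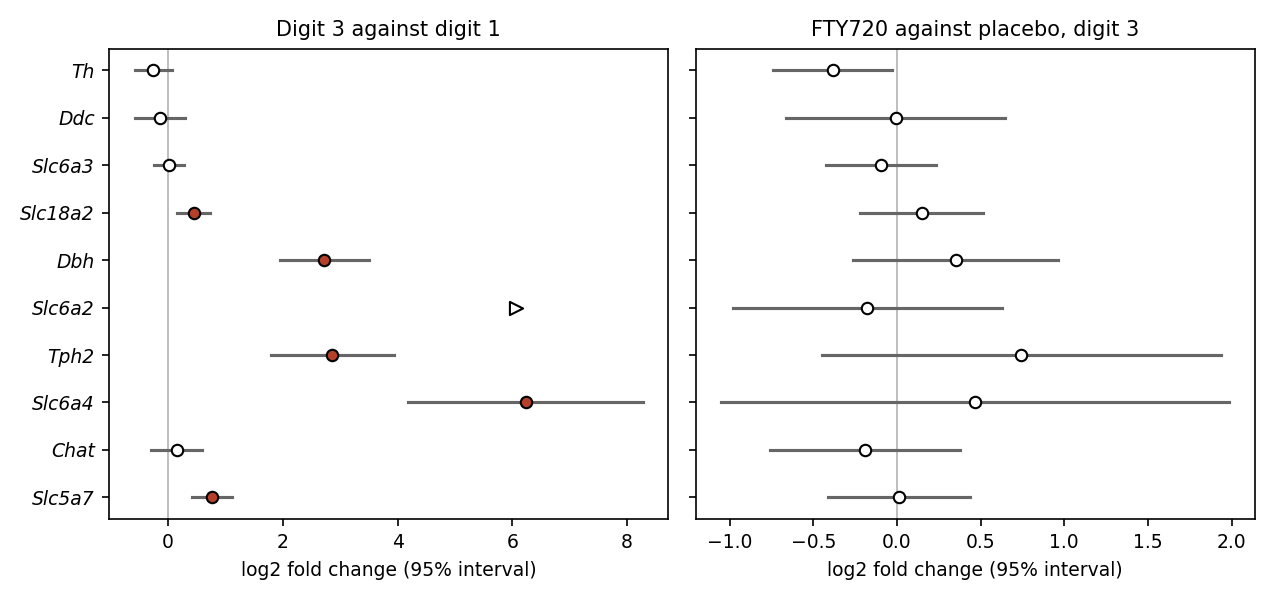
Log2 fold changes of the 10 genes with 95% intervals, digit 3 against digit 1 (left) and FTY720 against placebo within digit 3 (right, with its own axis). Filled points passed an adjusted p of 0.05, open points did not, and the open triangle is the lower bound of 6.07 for Slc6a2. The left panel shows 5 filled points besides the bound and the right panel none.

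Single genes were also compared by exact permutation of the libraries between the digits (two-sided, mean log2 CPM, 210 splits, smallest possible p = 0.00476). Dbh, Slc6a2, Tph2, Slc6a4 and Slc5a7 reached that smallest p, Slc18a2 gave p = 0.0238, and Th, Ddc, Slc6a3 and Chat gave exact permutation p-values of 0.381, 0.424, 0.776 and 0.457. These 10 values were not adjusted, and the splits do not keep the treatments balanced. Dbh, Slc6a2, Tph2 and Slc6a4 had met the filter on low counts only with the help of the digit 3 libraries, whereas Slc5a7 had not needed it.

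The ratio of 2 genes of one cell type within a library does not depend on the depth of that library. Such ratios were looked at after the values had been seen. Of 6 ratios, the 4 without a count of 0 were compared by exact permutation with adjustment over the 4. Slc5a7 counts were 1.58 to 2 times Chat counts with digit 1 and 2.18 to 3.39 times with digit 3, a separation without overlap (log2 difference 0.57, exact permutation p = 0.00476, adjusted p = 0.0190). Slc18a3 per Chat showed no such shift, with 0.553 to 1.11 and 0.50 to 1.14 (exact permutation p = 0.910). Slc6a4 was 0.143 to 0.469 times Tph2 with digit 3, and its 2 counts beside 73 of Tph2 with digit 1 compare with the 26.9 counts that the pooled digit 3 ratio would give. For Slc6a2 beside the 23 digit 1 counts of Dbh, the same reckoning gave 33.7 counts where 0 were found. It takes the pooled ratio as fixed, although Slc6a2 was 0.771 to 2.55 times Dbh over the digit 3 libraries. No test is given for these 2 ratios, because counts of 0 leave them to the added 0.5. Th per Slc6a3 (0.730 to 1.48 with digit 1, 0.739 to 1.31 with digit 3, exact permutation p = 0.452) and Slc18a2 per Slc6a3 (exact permutation p = 0.0714, adjusted p = 0.143) did not pass.

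**Figure D3:**
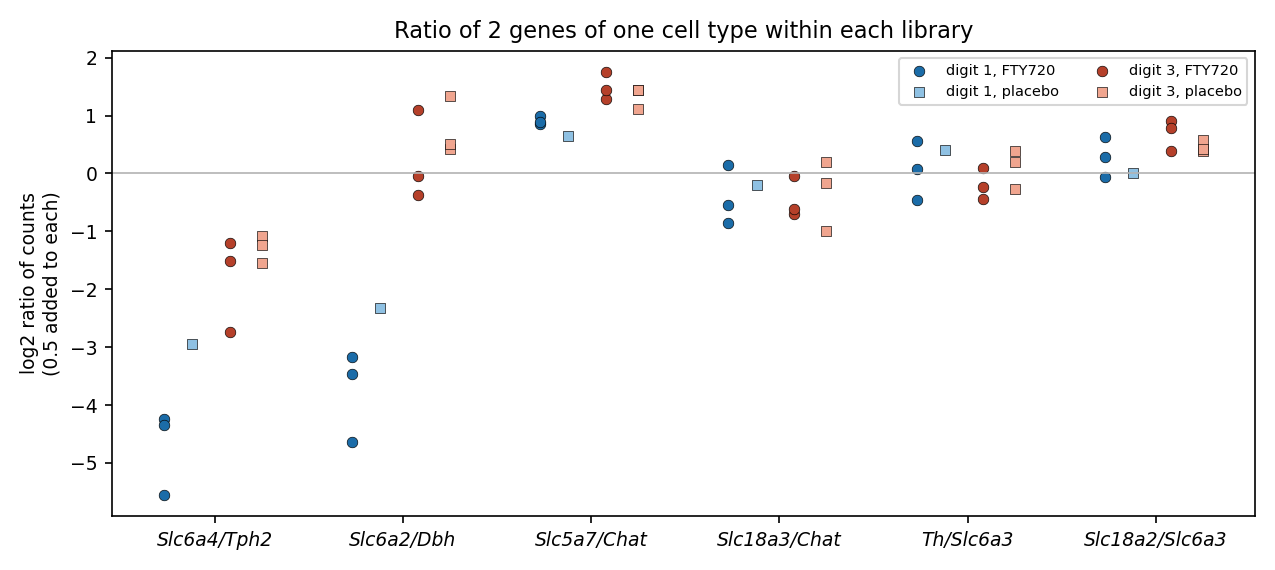
Log2 ratio of the counts of 2 genes in each library, with 0.5 added to each count, coloured by digit and treatment. The digit 3 libraries lie above the digit 1 libraries for Slc6a4/Tph2, Slc6a2/Dbh and Slc5a7/Chat and among them for Slc18a3/Chat and Th/Slc6a3. For Slc6a4/Tph2 and Slc6a2/Dbh the digit 1 points rest on 0 or 1 counts of the first gene and so largely on the added 0.5.

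Levels were compared between genes on the deposited FPKM, which allow for gene length. With digit 3 the order of the mean FPKM was Th (5.80 ± 1.01, SD, n = 6), Slc18a2 (5.52 ± 0.82), Ddc (4.18 ± 1.21) and Slc6a3 (4.05 ± 0.43), then Slc5a7 (2.94 ± 0.52), Tph2 (2.58 ± 1.96) and Chat (1.34 ± 0.36), and last Dbh (0.81 ± 0.16), Slc6a4 (0.60 ± 0.45) and Slc6a2 (0.50 ± 0.18). Neighbours in this order overlapped within 1 SD, except Slc6a3 with Slc5a7 and Chat with Dbh. With digit 1, Th again led (6.51 ± 1.32 FPKM, SD, n = 4), Ddc, Slc18a2 and Slc6a3 followed within 1 SD of each other, and Tph2 (0.40 ± 0.22 FPKM) stood below Chat (1.16 ± 0.21 FPKM).

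Among the 6 digit 3 libraries, 6 pairs of members were tested for moving together (log2 CPM, exact permutation over all orders, two-sided). Tph2 and Slc6a4 gave r = 0.90 (exact permutation p = 0.0375) and rho = 0.94 (exact permutation p = 0.0167). Without F3-609 and F3-612, the 2 libraries farthest from the median of Tph2, r was 0.95. Chat and Slc5a7 gave r = 0.78 (exact permutation p = 0.0431) and rho = 0.94 (exact permutation p = 0.0167), with r = 0.98 without F3-612 and P3-904. After adjustment over the 6 pairs neither passed on r (adjusted exact permutation p = 0.129 for each), and both stood at 0.05 on rho. Slc6a3 with Th (r = -0.13, exact permutation p = 0.796), Slc6a3 with Slc18a2 (r = 0.20, exact permutation p = 0.689), Dbh with Slc6a2 (r = -0.37, exact permutation p = 0.454) and Tph2 with Ddc (r = 0.54, exact permutation p = 0.239) did not pass. Without the 2 libraries farthest from the median of the first gene, r was -0.71, 0.41, -0.99 and 0.76 for these 4 pairs. Every r with 2 libraries left out rests on 4 points, too few to judge how steady it is. Pairs of different transmitters, outside the 6 tested, reached like values: r was 0.94 for Slc6a3 with Chat, 0.86 for Slc6a3 with Slc5a7 and 0.83 for Slc6a2 with Chat. Slc18a2 with Tph2, both of serotonin neurons, gave 0.88. The 6 libraries mix both treatments. The 3 placebo libraries and 3 FTY720 libraries are too few for a correlation of their own.

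**Figure D4:**
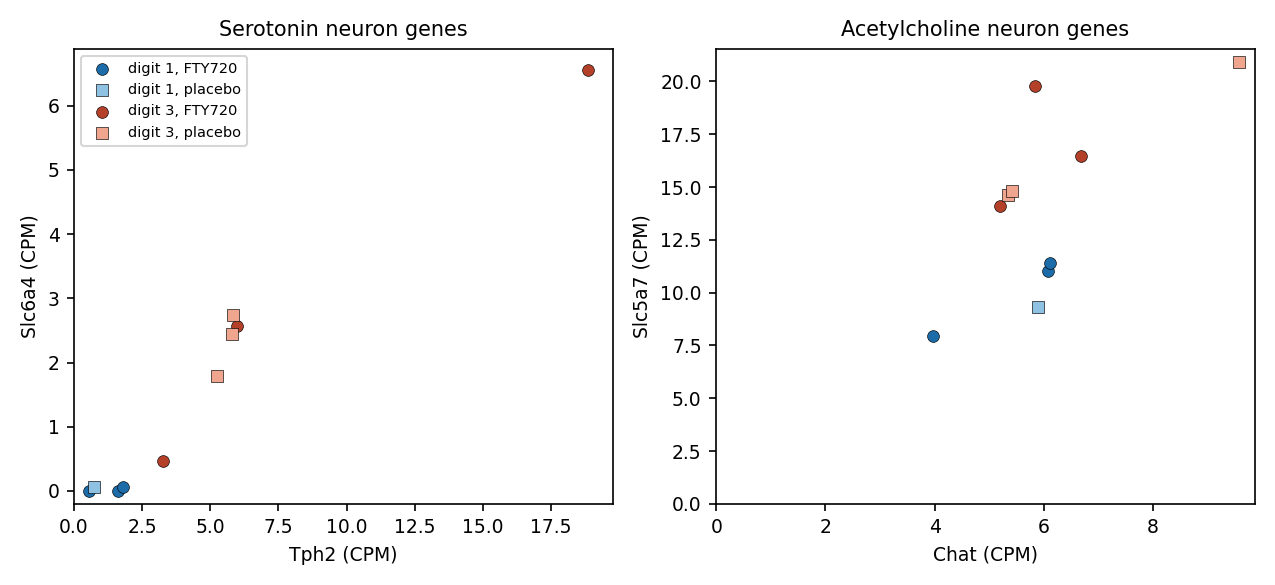
CPM of Slc6a4 against Tph2 (left) and of Slc5a7 against Chat (right), 1 point per library. On the left F3-609 lies far out at 18.8 and 6.56 CPM, and on the right the digit 3 libraries lie above the digit 1 libraries at like Chat levels.

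The genes that specify these neurons were followed in 4 lists of 23 genes, of which 18 were tested between the digits, some of them past the filter only with the help of the digit 3 libraries. With digit 3, 5 were higher, 3 lower and 10 did not pass, beside 13.9% higher and 14.4% lower of all genes tested, and the median log2 fold change was 0.12 against -0.01 over all genes tested. Among the noradrenaline genes Tfap2b, a transcription factor of these and of many cerebellar cells, went from 2.23 ± 0.39 CPM (SD, n = 4) to 15.5 ± 2.04 CPM (SD, n = 6, edgeR, adjusted p = 9.65e-08). Phox2a, too low to test, had no count with digit 1 and 1 to 5 counts in each digit 3 library.

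Of the 4 serotonin identity genes, Gata3 was higher with digit 3 (1.20 ± 0.31 CPM against 2.24 ± 0.34 CPM, SD, n = 4 and n = 6, edgeR, adjusted p = 0.0226). Lmx1b (log2 fold change 0.9995, edgeR, adjusted p = 0.0761) and Gata2 (0.15, adjusted p = 0.675, edgeR) did not pass, and Fev, the serotonin neuron factor proper, had at most 5 counts in a library. Of the 7 dopamine identity genes, 5 were tested and 2 were higher. These were En1, which also marks hindbrain and cerebellar territory and, with 4 to 16 counts in a digit 1 library, met the filter on low counts only with the help of the digit 3 libraries (log2 fold change 1.67, SE 0.41, edgeR, adjusted p = 0.0108), and Aldh1a1, a retinaldehyde dehydrogenase of some nigral neurons and other cells (1.05, SE 0.09, edgeR, adjusted p = 6.83e-06). Nr4a2, needed for dopamine neurons and also made in cortex, averaged 37.4 ± 7.47 CPM (SD, n = 4) and 32.7 ± 5.52 CPM (SD, n = 6) and did not pass. Pitx3, the defining dopamine neuron factor, and Foxa2 were too low to test.

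Of 8 tested genes of the acetylcholine list 3 were lower with digit 3, none was higher, and 5 did not pass, beside 14.4% of all genes that were lower. Lhx8, a factor of forebrain cholinergic neurons, averaged 3.99 ± 0.59 CPM (SD, n = 4) against 2.08 ± 0.70 CPM (SD, n = 6). Isl1, a factor of striatal and motor neurons, averaged 5.75 ± 0.23 CPM against 4.11 ± 0.48 CPM. Their edgeR adjusted p-values were 0.0208 for Lhx8 and 0.0325 for Isl1. Prph, a neurofilament of brainstem motor neurons, had a log2 fold change of 0.91 (edgeR, adjusted p = 0.0567), with 4.53 to 14.4 CPM over the digit 3 libraries.

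For enzymes outside the set the counts were read against the same 28.4% of all genes tested that passed. Of 7 genes for tetrahydrobiopterin, the cofactor of Th and Tph2, Spr was lower with digit 3 (log2 fold change -0.51, SE 0.14, edgeR, adjusted p = 0.0154) and the other 6 did not pass. Of 10 breakdown enzymes 3 were lower, among them Aldh2 and Akr1b3 (log2 fold changes -0.54 and -0.45, edgeR, adjusted p = 0.00578 and 0.0350). Aldh1a1 and, named after its value was seen, Bche, a cholinesterase (log2 fold change 0.66, edgeR, adjusted p = 0.0385), were higher, and 5 did not pass. Of 8 genes of other amine synthesis and transport, 4 were tested and none passed.

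The receptors for these transmitters sit on target cells throughout the brain. Of 33 receptor genes 29 were tested, with 2 higher, 14 lower and 13 that did not pass, beside 13.9% higher and 14.4% lower of all genes tested. Their median log2 fold change was -0.34, against -0.01 over all genes. The adrenergic receptors gave 6 lower of 9, and Adra1b averaged 29.4 ± 4.09 CPM (SD, n = 4) and 15.3 ± 1.91 CPM (SD, n = 6). Its edgeR adjusted p was 0.000125, and Adra2c, Adrb1 and Adra1d were lower as well (log2 fold changes -0.90, -0.83 and -0.88, edgeR, adjusted p = 0.00129, 0.00215 and 0.00607). Of 5 muscarinic receptors 3 were lower and 1 higher. Chrm1, the main cortical and hippocampal one, averaged 129.8 ± 21.1 CPM (SD, n = 4) and 76.1 ± 7.62 CPM (SD, n = 6), Chrm4 and Chrm3 had log2 fold changes of -0.93 and -0.43, and Chrm2, abundant in the brainstem, one of 0.60 (edgeR, adjusted p = 0.000498, 0.00251, 0.00801 and 0.00603, in that order). Of 12 tested serotonin receptors Htr6, Htr1a and Htr3a were lower and Htr2c higher (log2 fold changes -0.82, -0.37, -0.51 and 0.31, edgeR, adjusted p = 0.00203, 0.0266, 0.0489 and 0.0224). Drd1 and Drd2, the receptors of striatal output neurons, were lower (log2 fold changes -0.39 and -0.34, edgeR, adjusted p = 0.0185 and 0.0391), beside 6 of 7 striatal markers, a list that also holds these 2 genes. The summed striatal markers covered 739 to 874 CPM with digit 1 and 565 to 753 CPM with digit 3. The markers of cortex and hippocampus were lower for 4 of 6 (Tbr1, Neurod6, Rtn4rl2 and Emx1) and higher for 1 (Prox1), and their sums of 277 to 317 CPM and 203 to 232 CPM did not overlap. The part of either list in the receptor results was not tested.

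**Figure D5:**
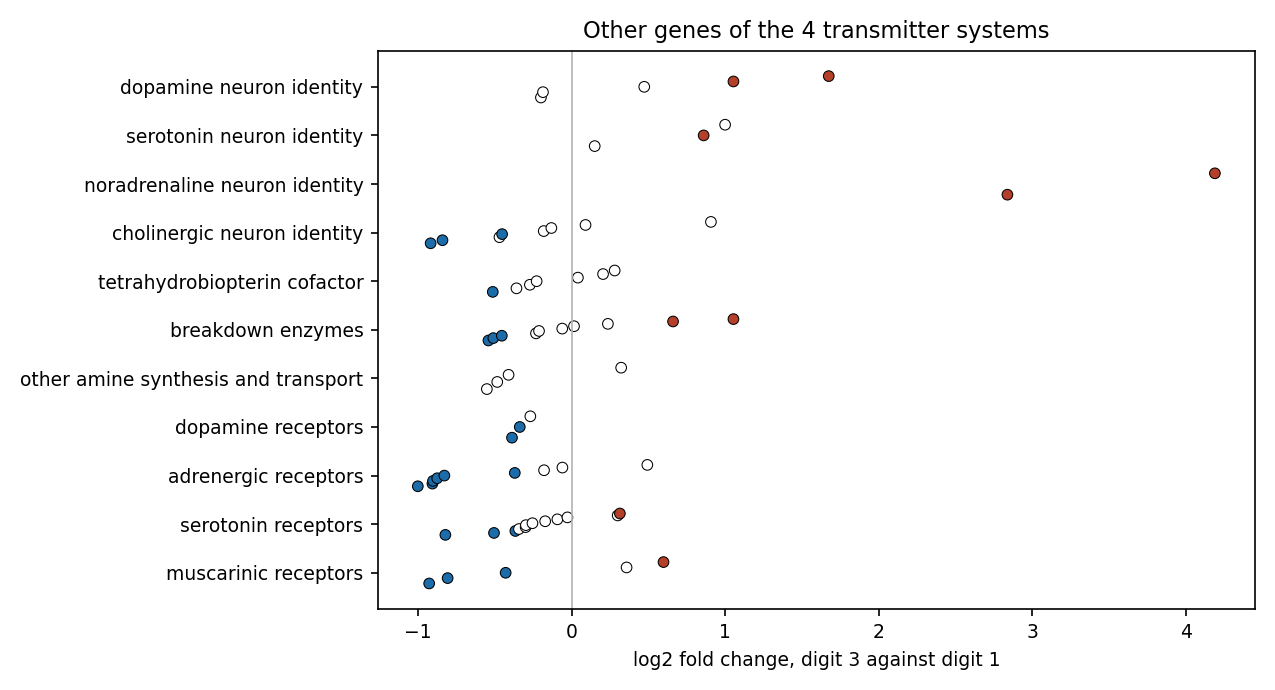
Log2 fold change, digit 3 against digit 1, of every tested gene of the 11 lists other than the 10 members, 1 point per gene and a line for each list, red where higher and blue where lower at an adjusted p of 0.05. The adrenergic and muscarinic receptors hold the most blue points with 6 and 3.

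FTY720 and placebo were then compared among the 6 digit 3 libraries. None of the 10 genes passed the adjusted test, nor did any of the 17656 genes tested (0.0% called by edgeR, against 5 genes by DESeq2 and 134 by edgeR without the filter on low counts, none of them a member). At an unadjusted p of 0.05 edgeR called 1 of the 10 genes, against 7.27% of all genes. That gene was Th, with 12.2, 10.4 and 13.5 CPM in the FTY720 mice F3-609, F3-612 and F3-908 and 17.2, 14.0 and 16.0 CPM in the placebo mice P3-612, P3-904 and P3-907. The 2 sets did not overlap, as held for 12.9% of all genes tested, and the means were 12.01 ± 1.58 CPM and 15.7 ± 1.58 CPM (SD, n = 3 each). The log2 fold change was -0.38 (95% interval -0.74 to -0.03, edgeR, adjusted p = 0.654), and the exact permutation p of 0.1 is the smallest that 3 mice against 3 allow. With digit 1, Th read 18.8, 11.5 and 14.9 CPM in the FTY720 mice around 17.1 CPM in the lone placebo mouse.

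For the other 9 members the values of the treatments overlapped. Slc6a3 averaged 13.6 ± 0.89 CPM with FTY720 and 14.6 ± 1.96 CPM with placebo (SD, n = 3 each), and Slc5a7 averaged 16.8 ± 2.86 CPM and 16.8 ± 3.58 CPM. Dbh averaged 2.45 ± 0.41 CPM and 1.93 ± 0.32 CPM (log2 fold change 0.35, 95% interval -0.26 to 0.96). Tph2 had the widest interval but one, with a log2 fold change of 0.74 (-0.45 to 1.94), which was -0.28 once F3-609 was left out. Slc6a4 likewise went from 0.47 (-1.05 to 1.99) to -0.61 without that library. With FTY720 the 3 values of Tph2 were the highest, the lowest and the second highest of the 6 libraries, whereas the placebo mice lay between 5.25 and 5.82 CPM. These intervals leave room for changes of 2-fold in Tph2 and Slc6a4, whereas that of Slc6a3 ran from -0.42 to 0.23. The hindbrain markers summed to 8.78 to 11.1 CPM with FTY720 and 12.2 to 13.7 CPM with placebo, and the cerebellar ones to 1450 to 1480 CPM and 1358 to 1406 CPM. Striatal markers summed to 565 to 674 CPM with FTY720 and 695 to 753 CPM with placebo. The sums of the other marker lists overlapped between the treatments. The part of the regional markers in the values of the members was not tested.

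Over all 10 libraries, without regard to the digit, none of the 10 genes had an unadjusted p under 0.05 between FTY720 and placebo (2.61% of 17665 genes had), and the groups held 3 and 1 libraries with digit 1. The interaction of treatment and digit gave no member an unadjusted p under 0.05 (edgeR, against 1.95% of all genes). It rests on P1-623 as the only digit 1 placebo library and says nothing of Slc6a2 and Slc6a4, which had 0 or 1 count in each digit 1 library.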

How the data were processed

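RNA of 10 Slc20a2-HO mice was sequenced after TRIzol extraction and library preparation with the NEBNext Ultra RNA kit. Per the submitters' processing notes, the authors used CASAVA 1.8, fastp, HISAT2 2.0.5, featureCounts 1.5.0-p3 and DESeq2 1.20.0 with GRCm38; the strand setting of the counting is not given in the sources used here. The deposited gene counts and FPKM, both made by the authors, were used as they stand, and 0 per-sample columns were left out. Groups came from the labels. The p-values measure the spread between these mice. Members and lists were chosen with earlier results of these data known, and genes of each list were named by smallest p between digits. Counts were scaled by TMM, filtered by filterByExpr and tested with edgeR 4.0.16 (R 4.3.3). Single genes and pairs used exact permutation, with every split or order enumerated, on log2 CPM with a prior count of 2. Alternatives were DESeq2 1.42.0, limma 3.58.1 (voom, or log2 FPKM with 0.1 or 1 added), other scalings, filters, covariates and each library left out. The fits were tested on simulated data. No pair of libraries was a duplicate: the lowest chi-square per degree of freedom over 45 pairs was 16.1. Some genes of the lists are counted in them and not reported here by name.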

Additional observations from a re-analysis of the deposited data

Results flagged for a closer look

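Libraries far from the others of their group were sought for the 10 genes in 39 sets of 4 or 6 libraries, of which chance marks about 1 in 20, and 7 were found. Tph2 in F3-609 read 18.8 CPM against 3.26 to 5.98 CPM in the other digit 3 libraries, and against 0.531 to 5.98 CPM in the other FTY720 libraries. Slc6a4 in the same library read 6.56 CPM against 0.465 to 2.73 CPM in the other digit 3 libraries. Chat in P3-904 read 9.58 CPM against 5.20 to 6.69 CPM in the other digit 3 libraries and 5.35 to 5.90 CPM in the other placebo libraries. Chat in F1-622 read 3.97 CPM against 5.90 to 6.12 CPM in the other digit 1 libraries. Tph2 in P1-623 read 0.721 CPM against 5.25 to 5.82 CPM in the other placebo libraries, which all carry digit 3. Without F3-609 the mean of the digit 3 libraries was 5.22 ± 1.13 CPM for Tph2 and 1.999 ± 0.93 CPM for Slc6a4 (SD, n = 5), and without P3-904 it was 5.70 ± 0.60 CPM for Chat (SD, n = 5).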

How the results depend on the processing

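Of 427 alternative values of single genes and pairs, 395 kept direction and side of the threshold, 12 were no longer past it and 20 changed sign. Between the digits, 6 members passed; 5 to 6 did when a library was left out, 5 without the treatment covariate (Slc18a2 lost), 4 in the FTY720 libraries alone, where Slc18a2 was lost and Slc6a4 did not meet the filter on low counts and gave no value, and 0 in the placebo libraries alone (3 against 1). All genes passing numbered 5010, 3106 in the FTY720 libraries alone, 32 in the placebo libraries alone, and 2593 (without P1-623) to 6000 with a library left out. Slc6a3 turned to -0.055 in the FTY720 libraries alone; with a library left out it ran from -0.061 to 0.082 and Ddc from -0.24 to 0.0067. Within digit 3 no alternative called a member; genes with unadjusted p under 0.05 numbered 1283, 738 with the leading digit of the mouse number as covariate, 2340 without a filter, and 388 (without F3-609) to 3896 (without P3-904). There Slc6a4 was -0.022 in limma on log2(FPKM + 0.1) and -0.19 in limma-voom, and Slc5a7 -0.012 with the leading digit. With a library left out, log2 fold changes ran from -0.18 to 0.31 (Ddc), -0.16 to 0.014 (Slc6a3), -0.0090 to 0.27 (Slc18a2), -0.55 to 0.16 (Slc6a2), -0.28 to 1.15 (Tph2), -0.61 to 0.98 (Slc6a4), -0.33 to 0.14 (Chat) and -0.13 to 0.19 (Slc5a7). Over all libraries, 461 genes had such a p, 2256 with the digit as covariate, 1117 without a filter and 281 to 984 with a library left out; for the interaction, 345 and 222 to 496. The r of Slc6a3 and Th ran from -0.41 to 0.10. The exact tests of single members were also run on RLE scaling and FPKM, added after seeing the data, and again 6 gave p under 0.05. The cause was not tested in any of these cases. No paired analysis was possible because the groups share a mouse number only in 1 case, 612. With 0 to 30 counts per digit 1 library, depth limits what can be said of Dbh, Slc6a2, Tph2 and Slc6a4 there.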

Other observations

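The genes most like 4 members over the 10 libraries (Pearson r of log2 CPM, 14784 protein-coding genes, given as a description because the libraries share the digit) were Lhx1 (0.98) and Slc22a4 (0.98) for Dbh, Ppwd1 (0.97) and Taf1a (0.96) for Tph2, Ikzf4 (0.94) and Sync (0.92) for Slc6a3, and Adra1a (0.95) and Depdc5 (0.95) for Chat. Among the other 14783 genes, Slc6a4 ranked at place 6 for Tph2 (r = 0.94) and Slc6a2 at place 207 for Dbh (r = 0.92), while Slc5a7 ranked at place 1313 for Chat and Th at place 12055 for Slc6a3.

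Of 8 marker genes of the hypothalamus, which also holds dopamine neurons, 6 were tested and 4 were lower with digit 3, beside 14.4% of all genes tested. The other 2 did not pass. Oxt averaged 37.2 ± 6.50 CPM (SD, n = 4) and 6.27 ± 3.49 CPM (SD, n = 6), and Hcrt 11.5 ± 3.17 CPM and 5.97 ± 2.23 CPM (edgeR, adjusted p = 0.000186 for Oxt and 0.00254 for Hcrt).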
